A study of Mus musculus with 2 samples.

Results

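Esr1, Esr2, Pgr, Nr3c1 and Nr3c2 encode the nuclear receptors for estrogen (alpha and beta), progesterone, glucocorticoid and mineralocorticoid. They were taken by symbol from the gene lists of both count matrices, and each symbol named 1 of the 32285 genes. The cells came from the prostates of wild-type male C57BL6 mice, dissociated with papain and TrypLE and profiled with the 10x Genomics single-cell method that counts transcripts from the 3′ end. The ventral library was made from ventral lobes with kit version 2, and the proximal library from the proximal and periurethral region, next to the urethra, with kit version 3. Region and kit version therefore cannot be told apart. Each region had 1 library, and the labels give neither the age of the mice nor how many were used, so no difference has a replicate check, no test was made, and no p-value is given.

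Steroid receptors rest in the cell bound to Hsp90 chaperones, or already sit in the nucleus, and act as transcription factors once a hormone binds. Estrogen receptor alpha is known in the prostate mainly from stromal and some epithelial cells, and estrogen receptor beta from the luminal epithelium. The glucocorticoid receptor is made by most cell types. The mineralocorticoid receptor is best known from sodium-transporting epithelia, where enzymes that inactivate glucocorticoids decide which hormone reaches it.

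On genome build mm10, in the GENCODE vM21 annotation, Esr1 (ENSMUSG00000019768) lies at chr10:4611593-5005614 on the plus strand. Esr2 (ENSMUSG00000021055) lies at chr12:76120419-76177259 on the minus strand, Pgr (ENSMUSG00000031870) at chr9:8899833-8968611 on the plus strand, and Nr3c2 (ENSMUSG00000031618) at chr8:76899442-77245012 on the plus strand. Nr3c1 is ENSMUSG00000024431. All are protein-coding genes with long introns. Nr3c2 overlaps the antisense gene Gm10649, which the files count separately, and the small RNA genes Gm24838 and Gm23260, which the files do not list. A pseudogene on the same strand, Gm7862, overlaps Esr2 and is not listed in the files either.

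Levels are given as CPM, meaning the unique molecular identifiers (UMIs, 1 for each captured RNA molecule) of a gene, summed over the cells of a class, for every 1000000 UMIs of that class. The values in parentheses after a level or a ratio are exact 95% intervals, and they cover counting error only, not differences between mice or between cells. The ventral library held 49356586 UMIs in 2221 barcodes and the proximal library 97817603 UMIs in 4344 barcodes, and 1988 and 3705 cells were kept. No barcode occurred in both. Classes were named from marker genes and are called "-like" for that reason. Distal luminal-like cells, the secretory cells of the lobes, were split into Sbp-rich, Tgm4-rich and Msmb-rich cells. Each cluster took the one of 3 fixed marker lists that stood highest in it on average. The lists were for ventral-type, anterior-type and dorsolateral-type luminal cells, in that order. Not every marker followed its list. Fgl1, of the dorsolateral-type list, was a leading gene of the Tgm4-rich clusters of 242 and 89 cells and of no Msmb-rich cluster. The proximal library had 163, 386 and 161 such cells, 963 proximal luminal-like, 913 basal-like, 522 fibroblast-like, 79 macrophage-like, 61 endothelial-like, 27 T or NK cell-like and 26 seminal vesicle-like cells. A cluster of 404 cells led by haemoglobin genes, Kcne3 and Aqp5 stayed unnamed. Its best class was proximal luminal, but 3 of its 10 leading genes were erythroid markers. All 7 proximal luminal markers were detected in it, with a summed level of 9560 CPM against 10107 CPM in proximal luminal-like cells. The unnamed cluster entered neither the proximal luminal-like nor the epithelial-like levels. The ventral library had 1600 Sbp-rich, 96 Msmb-rich, 92 proximal luminal-like, 142 basal-like, 29 macrophage-like and 29 T or NK cell-like cells, and no fibroblast-like class.

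Esr1 was highest in luminal cells of the proximal library, and there it followed the lobe type. Its level was 87.6 CPM (82.6 to 92.8) in Tgm4-rich cells, 63.1 CPM (58.5 to 68.0) in Msmb-rich cells and 10.4 CPM (8.50 to 12.6) in Sbp-rich cells. Tgm4-rich cells thus had an Esr1 level 8.43-fold (6.90 to 10.4) that of Sbp-rich cells, and Msmb-rich cells 6.07-fold (4.94 to 7.53). The gap between Tgm4-rich and Msmb-rich cells was small, a ratio of 1.39 (1.26 to 1.53). Ventral Msmb-rich cells, at 23.2 CPM (17.6 to 29.98), also lay above Sbp-rich cells, at 7.53 CPM (6.74 to 8.40), a ratio of 3.08 (2.29 to 4.08). Msmb-rich cells thus stood above Sbp-rich cells in both libraries, while Tgm4-rich cells formed a class in the proximal library only.

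Secretory RNA bears on these ratios, because Sbp alone stood at 343414 CPM in the Sbp-rich cells of the proximal library. With the 26 genes that took over 1% of any class left out of the denominator, the log2 ratio of Esr1 in Tgm4-rich over Sbp-rich cells was 2.05 in place of 3.08, and 1.64 where cells were named 1 by 1 from their markers. The matching values for Msmb-rich over Sbp-rich cells of the proximal library were 1.80 and 1.13 in place of 2.60.

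Outside the lobes' secretory cells, Esr1 in the proximal library stood at 38.4 CPM (33.4 to 43.9) in fibroblast-like cells, the class in which prostate stromal estrogen signalling is usually placed. Tgm4-rich cells had 2.28-fold (1.97 to 2.66) that level. Esr1 was at 25.4 CPM (22.5 to 28.5) in the unnamed cluster and 23.1 CPM (20.5 to 25.9) in basal-like cells. Endothelial-like cells had 12.4 CPM (5.94 to 22.8), proximal luminal-like cells 11.0 CPM (9.83 to 12.4) and seminal vesicle-like cells 4.21 CPM (1.15 to 10.8). Fibroblast-like cells stood above the rest, among which the interval of every class overlapped that of the next. The 15 Esr1 UMIs of the macrophage-like cells gave 15.2 CPM (8.53 to 25.1), but 46.7% of them came from 1 cell. T or NK cell-like cells had 0 UMIs of Esr1, with an upper bound of 17.2 CPM.

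Basal-like cells were not uniform in Esr1. Of their 3 clusters in the proximal library, the one led by Scpep1, Apoe and Trp63 had 44.4 CPM, the one led by Krt14 and Krt17 had 26.7 CPM, and the one led by Grp, Ivl and Col17a1 had 6.74 CPM. Nr3c2 was highest in the cluster lowest in Esr1, with 20.4 CPM in the Grp and Ivl cluster against 11.1 and 9.18 CPM in the other two. Among the ventral classes, basal-like cells had the highest Esr1 level, 32.7 CPM (21.0 to 48.7) from 24 UMIs, in 15.5% of the cells, with an interval that overlapped those of Msmb-rich and T or NK cell-like cells and the upper bound for macrophage-like cells. Fibroblast markers were detected in the same ventral cells, 6 of 6, with a summed level of 5254 CPM, nearly all of it Dcn at 5156 CPM while Col1a1 was at 9.54 CPM. The same list summed to 1334 CPM in proximal basal-like cells and to 8637 CPM in fibroblast-like cells. The part of fibroblast RNA in the ventral basal Esr1 level was not tested.

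**Figure D1:**
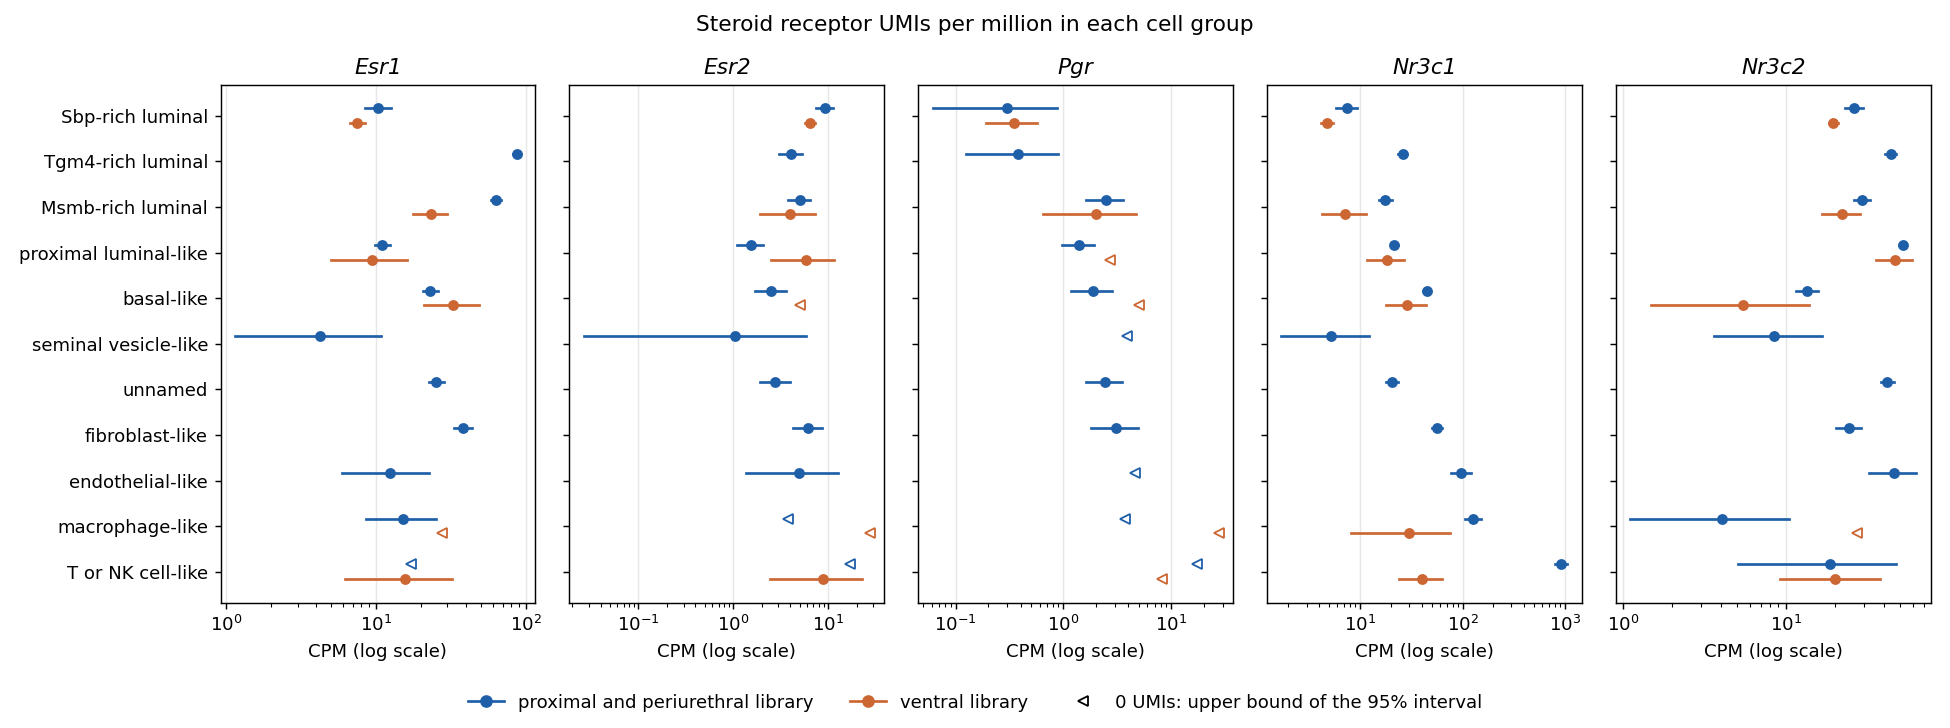
Level of each receptor in CPM (log axis) by cell class, for the proximal and periurethral library (blue) and the ventral library (orange). Points are levels, bars exact 95% Poisson intervals, and open triangles mark the upper bound where a class had 0 UMIs. Esr1 peaks at 87.6 CPM in Tgm4-rich cells, Nr3c1 at 916 CPM in T or NK cell-like cells, and Nr3c2, with all genes in the denominator, at 52.1 CPM in proximal luminal-like cells.

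Esr2 had another order among the lobe types. Of the proximal types it was highest in Sbp-rich cells, at 9.30 CPM (7.52 to 11.4). Msmb-rich cells had 5.01 CPM (3.77 to 6.52) and Tgm4-rich cells 4.05 CPM (3.04 to 5.30). Sbp-rich cells thus had 2.29-fold (1.62 to 3.28) the Esr2 level of Tgm4-rich cells, where Esr1 was higher in the latter. With abundant genes left out of the denominator the log2 ratio of Esr2 in Tgm4-rich over Sbp-rich cells went from -1.20 to -2.22. Ventral Sbp-rich cells had 6.47 CPM (5.74 to 7.28) and Msmb-rich cells 4.00 CPM (1.92 to 7.35), and the ratio of Msmb-rich to Sbp-rich, 0.617 (0.293 to 1.15), had an interval that held 1.

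Proximal luminal-like cells of the proximal library had the lowest Esr2 level of the larger classes, 1.53 CPM (1.10 to 2.07) from 42 UMIs, and Sbp-rich cells had 6.08-fold (4.18 to 8.96) that level. Leaving abundant genes out of the denominator raises Sbp-rich levels more than proximal luminal-like ones, so this ratio is then larger. Basal-like cells had 2.52 CPM (1.71 to 3.57) and the unnamed cluster 2.79 CPM (1.91 to 3.94). Fibroblast-like cells had 6.18 CPM (4.28 to 8.64), of which 1 cell gave 32.4% of the 34 UMIs. The ventral proximal luminal-like cells had 5.82 CPM (2.51 to 11.5) of Esr2 from 8 UMIs, and 1.55 CPM without the 34 of 92 cells rich in Sbp and Spink1. Ventral basal-like cells had 0 UMIs, with an upper bound of 5.03 CPM. Macrophage-like and T or NK cell-like cells of the proximal library had no Esr2 UMI either, with upper bounds of 3.75 and 17.2 CPM. Ventral T or NK cell-like cells had the highest ventral Esr2 value, 8.90 CPM (2.43 to 22.8), from only 4 UMIs, with an interval that held the Sbp-rich level. All 4 lay in the 18 of their 29 cells that were rich in Sbp and Spink1, and the other 11 cells had 0.

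Pgr was sparse in every class, at most 3.09 CPM. Its levels in the proximal library were 3.09 CPM (1.80 to 4.95) in fibroblast-like cells, 2.46 CPM (1.62 to 3.58) in Msmb-rich cells, 2.44 CPM (1.62 to 3.53) in the unnamed cluster, 1.87 CPM (1.18 to 2.80) for basal-like cells and 1.38 CPM (0.980 to 1.90) for proximal luminal-like ones. These intervals overlap from each class to the next. Tgm4-rich cells, at 0.382 CPM (0.124 to 0.892) from 5 UMIs, and Sbp-rich cells, at 0.297 CPM (0.0612 to 0.867) from 3 UMIs, lay below them. Msmb-rich cells differed from Sbp-rich cells in both libraries, with ratios of 8.28 (2.55 to 42.7) in the proximal and 5.78 (1.64 to 16.7) in the ventral one, where the counts were 5 and 15 UMIs. Leaving abundant genes out of the denominator lowers the proximal ratio by the same factor as that of Esr1 between these classes. Endothelial-like, macrophage-like, T or NK cell-like and seminal vesicle-like cells of the proximal library had 0 Pgr UMIs, as did all ventral classes other than the luminal lobe types. At these depths the upper bounds ran from 2.68 CPM in ventral proximal luminal-like to 27.4 CPM in ventral macrophage-like cells, so absence cannot be read from them. Pgr is a known target of estrogen receptor alpha, and the Tgm4-rich cells, highest in Esr1, were among the lowest in Pgr.

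Nr3c1 was highest in immune and vascular cells and lower in the epithelium. In the proximal library its level was 916 CPM (792 to 1053) in T or NK cell-like cells, 126 CPM (105 to 150) in macrophage-like cells and 96.5 CPM (76.3 to 120) in endothelial-like cells. Fibroblast-like cells had 56.7 CPM (50.6 to 63.4) and basal-like cells 44.7 CPM (41.0 to 48.6). Below them came Tgm4-rich cells at 26.1 CPM (23.4 to 29.0), proximal luminal-like cells at 21.6 CPM (19.9 to 23.5), the unnamed cluster at 20.4 CPM (17.9 to 23.2), Msmb-rich cells at 17.7 CPM (15.3 to 20.3), Sbp-rich cells at 7.42 CPM (5.84 to 9.30) and seminal vesicle-like cells at 5.26 CPM (1.71 to 12.3). Macrophage-like over endothelial-like cells gave a ratio of 1.30 (0.975 to 1.76), an interval that held 1. The level intervals of neighbours from Tgm4-rich down to Msmb-rich cells overlapped, which does not show that their levels were equal.

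T or NK cell-like cells had 39.0-fold (33.5 to 45.2) the Nr3c1 level of all epithelial-like cells together and 7.27-fold (5.78 to 9.18) that of macrophage-like cells. The 197 UMIs were spread over the class, with 92.6% of the 27 cells holding at least 1 and 13.7% of the UMIs in the highest cell. Once every cell was thinned to 1000 UMIs, 51.9% of these cells and 3.03% of epithelial-like cells held one. No class is known to lack Nr3c1; in the Sbp-rich cells, low in Nr3c1 and with a median of 61448 UMIs per cell against 7275 in the T or NK cell-like cells, 30.7% of unthinned cells held a UMI. All 6 T or NK cell markers were detected, with a summed level of 1781 CPM and Cd3g at 516 CPM, and all 5 smooth muscle markers were at 0. Epithelial markers were detected in the same 27 cells, 7 of 8 distal luminal ones with a sum of 3096 CPM, 7 of 7 proximal luminal ones with 1153 CPM and 4 of 6 basal ones with 130 CPM. Of the other lists, 1 of 5 endothelial markers summed to 149 CPM, 2 of 6 fibroblast markers to 13.9 CPM, 1 of 6 macrophage markers to 9.30 CPM and 1 of 5 neuroendocrine markers to 4.65 CPM. The part of RNA from these other cell types in the Nr3c1 level was not tested. The value depended on which cells the class held: removing doublets at the expected rate gave a T or NK cell-like cluster of 45 cells with an Nr3c1 level of 430 CPM, and a coarser clustering left no such class and a macrophage-like class at 268 CPM.

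The ventral library had the same classes on top of the Nr3c1 order but lower values. T or NK cell-like cells had 40.1 CPM (23.7 to 63.3), macrophage-like cells 29.8 CPM (8.11 to 76.2) from 4 UMIs, basal-like cells 28.6 CPM (17.7 to 43.7) and proximal luminal-like cells 18.2 CPM (11.8 to 26.8). Msmb-rich cells had 7.20 CPM (4.26 to 11.4) and Sbp-rich cells 4.79 CPM (4.16 to 5.49). The intervals of the first 4 overlapped in turn, and those of the 2 lobe types overlapped as well. Distal luminal markers summed to 376927 CPM in the ventral T or NK cell-like cells and to 3096 CPM in the proximal ones. In macrophage-like cells they summed to 119682 CPM in the ventral and 3427 CPM in the proximal library, and the part of this RNA in the lower ventral Nr3c1 value was not tested. With the 18 of 29 cells left out that held over 5% of their UMIs in Sbp and Spink1, the other 11 cells had an Nr3c1 level of 244 CPM. The ventral T or NK cell-like value thus changed with whether these 18 cells were kept.

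Nr3c1 also differed between lobe types, with Tgm4-rich cells at 3.51-fold (2.73 to 4.57) and Msmb-rich cells at 2.38-fold (1.81 to 3.15) the level of Sbp-rich cells in the proximal library. The second did not hold when cells were named 1 by 1 from their markers, where its log2 ratio was -0.43 in place of 1.25, and the first was 0.23 in place of 1.81. Leaving abundant genes out of the denominator also lowers both log2 ratios, by the same amounts as those of Esr1 between these classes. Basal-like cells had 2.06-fold (1.83 to 2.32) the level of proximal luminal-like cells.

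Nr3c2 was highest in proximal luminal-like cells of both libraries by CPM over all genes, but in the proximal library Sbp-rich cells came above them once abundant genes were left out of the denominator. Its level there was 52.1 CPM (49.5 to 54.9) in the proximal library, followed by 45.8 CPM (32.2 to 63.1) in endothelial-like cells, 44.0 CPM (40.4 to 47.7) in Tgm4-rich cells, 41.9 CPM (38.3 to 45.9) in the unnamed cluster, 29.3 CPM (26.2 to 32.7) in Msmb-rich, 26.2 CPM (23.2 to 29.6) in Sbp-rich and 24.4 CPM (20.4 to 28.8) in fibroblast-like cells. Without abundant genes in the denominator Nr3c2 was at 61.3 CPM in Sbp-rich, 57.1 CPM in proximal luminal-like and 50.5 CPM in Tgm4-rich cells. Proximal luminal-like and endothelial-like cells overlapped in their intervals, and 21.6% of the endothelial UMIs came from 1 cell. Basal-like cells had only 13.5 CPM (11.5 to 15.7), 3.87-fold (3.29 to 4.57) below proximal luminal-like cells. Macrophage-like cells had 4 UMIs, or 4.06 CPM (1.11 to 10.4), and 75.0% of them came from 1 cell. T or NK cell-like cells, at 18.6 CPM (5.07 to 47.6) from 4 UMIs, and seminal vesicle-like cells, at 8.41 CPM (3.63 to 16.6), had wide intervals. Proximal luminal-like cells were also highest among the ventral classes, at 46.5 CPM (35.8 to 59.4). Next came Msmb-rich cells at 22.0 CPM (16.6 to 28.6) and Sbp-rich cells at 19.6 CPM (18.3 to 20.9). Ventral T or NK cell-like cells had 20.0 CPM (9.16 to 38.0) of Nr3c2 from 9 UMIs, all in the 18 of 29 cells rich in Sbp and Spink1, and the other 11 cells had 0. Ventral basal-like cells had 5.45 CPM (1.49 to 14.0), and macrophage-like cells 0 UMIs with an upper bound of 27.4 CPM. The ratio of Nr3c2 in proximal luminal-like cells of the proximal to the ventral library was 1.12 (0.872 to 1.46), and its direction turned with the setting. The ventral level was 62.6 CPM without abundant genes in the denominator, and 68.4 CPM with the 34 of 92 cells left out that held over 5% of their UMIs in Sbp and Spink1, both above the matching proximal values of 57.1 and 52.1 CPM. Distal luminal markers, 7 of 8, summed to 190985 CPM in these 92 ventral cells, against 1770 CPM in the proximal ones.

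Within the 5 proximal luminal-like clusters of the proximal library Nr3c2 ranged from 32.1 to 73.5 CPM. The highest was the cluster led by Clca1, Tff3 and Cxcl17, and the lowest the one led by Arl14, Krt23 and Gm13986. The ratio of Nr3c2 in Tgm4-rich over Sbp-rich cells, 1.68 (1.45 to 1.95), changed direction with the denominator: with abundant genes left out its log2 value was -0.28 in place of 0.75.

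Some luminal clusters differed in RNA quality as well as in lobe type. Of the 3 Tgm4-rich clusters, the largest, with 242 cells, had 90.1 CPM of Esr1 and 44.1 CPM of Nr3c2. A cluster of 55 cells with a median of 5638 UMIs had 207 CPM of Esr1 and 131 CPM of Nr3c2, beside 37458 CPM of the nuclear RNA Malat1 and 33067 CPM of Gm26917. A cluster of 89 cells with 1243 CPM of Malat1 had 13.1 CPM of Esr1 and 6.98 CPM of Nr3c2. Receptor level and nuclear RNA thus moved together over these 3 clusters, and the part of nuclear RNA in the difference was not tested. Without the smaller 2 clusters the Tgm4-rich Esr1 level was 90.1 CPM against 87.6 CPM. The largest cluster held 1032 of the 1145 Esr1 UMIs of Tgm4-rich cells, so leaving the others out could change this level little.

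**Figure D2:**
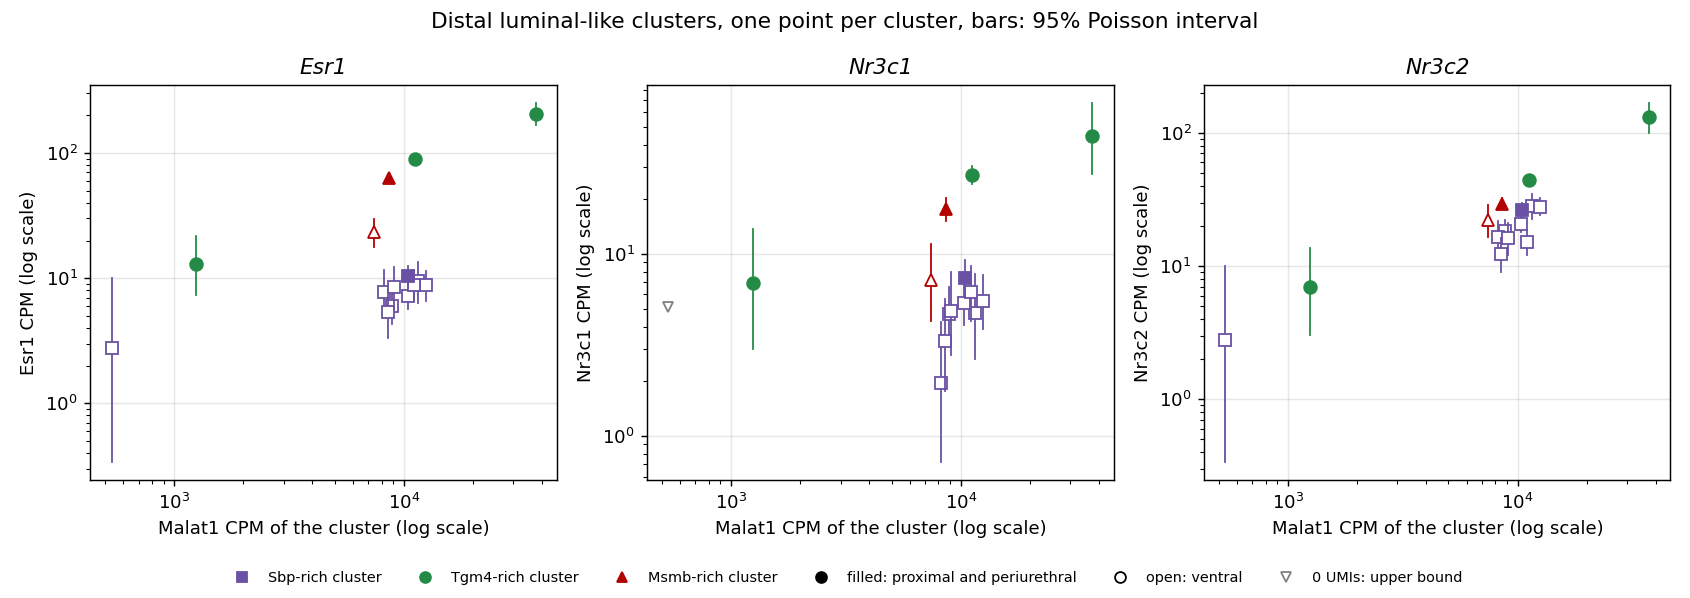
Esr1, Nr3c1 and Nr3c2 CPM (log axis) against Malat1 CPM (log axis) for every distal luminal-like cluster, with shapes for the lobe type, filled symbols for the proximal and periurethral and open ones for the ventral library, and bars for exact 95% Poisson intervals. The Tgm4-rich clusters spread from 13.1 to 207 CPM of Esr1, in the order of their Malat1, while at similar Malat1 the largest Tgm4-rich cluster and the Msmb-rich clusters sit above the Sbp-rich ones in Esr1.

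Fibroblast-like cells were compared with all epithelial-like cells of the proximal library, counting a gene as higher or lower from 2-fold on, among genes with at least 50 UMIs in both groups together. Among the receptors, 2 of 5 were at least 2-fold higher and 0 of 5 at least 2-fold lower. Of all 15686 genes tested, 23.6% were higher and 16.5% lower by that measure, with a median log2 ratio of 0.12. The higher pair were Nr3c1, 2.41-fold (2.13 to 2.72), and Pgr, 2.41-fold (1.35 to 4.06). With the mean of the cells' own CPM in place of summed counts both fell under the 2-fold limit, to log2 ratios of 0.69 for Pgr and 0.99 for Nr3c1. Esr2 was 1.68-fold (1.14 to 2.40) higher and Nr3c2 1.52-fold (1.28 to 1.82) lower. Esr1 did not differ beyond counting error, a ratio of 1.13 (0.980 to 1.30). The epithelial-like cells included both the Tgm4-rich cells with the highest Esr1 and the Sbp-rich cells with little.

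Proximal luminal-like cells were then compared with distal luminal-like cells in each library. In the proximal library 0 of 5 receptors were at least 2-fold higher and 2 of 5 lower, against 25.1% higher and 16.3% lower of 14208 genes and a median log2 ratio of 0.16. The lower pair were the estrogen receptors, Esr1 by 5.15-fold (4.56 to 5.83) and Esr2 by 3.86-fold (2.76 to 5.52). Nr3c2 exceeded its distal level 1.53-fold (1.42 to 1.66), while Pgr had a ratio of 1.35 (0.831 to 2.20) and Nr3c1 one of 1.21 (1.08 to 1.36). Of the 4 receptors tested in the ventral library, 2 were at least 2-fold higher and 0 lower, against 35.3% higher and 2.87% lower of 11098 genes and a median log2 ratio of 0.73. These were Nr3c1, 3.69-fold (2.34 to 5.59), and Nr3c2, 2.36-fold (1.80 to 3.05). Distal luminal markers summed to 190985 CPM in these ventral proximal luminal-like cells, and without their 34 cells rich in Sbp and Spink1 Nr3c1 was 5.68-fold and Nr3c2 3.47-fold higher. Esr1, with a ratio of 1.13 (0.595 to 1.95), and Esr2, with 0.917 (0.392 to 1.83), had ventral intervals that held 1. Most ventral distal luminal-like cells were Sbp-rich, and against Sbp-rich cells alone the proximal library gave an Esr1 ratio of 1.06 (0.849 to 1.34), beside the ventral 1.25 (0.661 to 2.18). Both turned below 1 without abundant genes in the denominator, where Esr1 was 2.01-fold lower in the proximal and 1.28-fold lower in the ventral library.

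Leaving abundant genes out of the denominator shifted the median log2 ratio, taken here over the tested genes with UMIs in both groups, from 0.17 to -0.22 in the proximal and from 0.74 to 0.09 in the ventral comparison of luminal cells, and from 0.14 to 0.02 for fibroblast-like over epithelial-like cells. The log2 ratio of Nr3c1 in the proximal library then changed direction, to -0.10 from 0.28, and was -0.023 where cells were named 1 by 1. That of Esr1 was then -2.75 in the proximal and -0.48 in the ventral library, so the ventral value turned from 0.17 to the same sign as the proximal one. That of Nr3c2 fell to 0.23 in the proximal and 0.59 in the ventral library, above the shifted median in both. With the 34 ventral proximal luminal-like cells rich in Sbp and Spink1 left out, the ventral Esr2 log2 ratio was -2.03 in place of -0.12. At a mitochondrial limit of 5% it was 0.43, so the direction of ventral Esr2 turned with the setting.

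**Figure D3:**
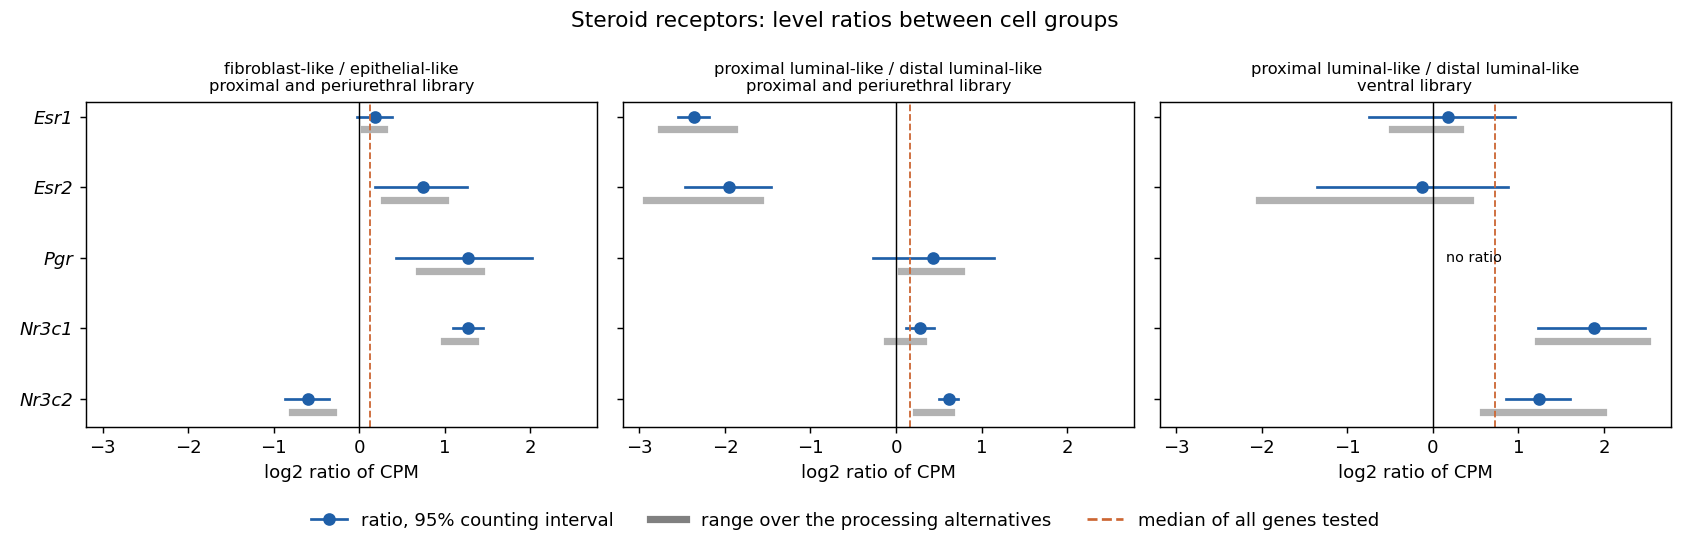
Log2 ratio of CPM for each receptor in fibroblast-like over epithelial-like cells and in proximal luminal-like over distal luminal-like cells of each library. Points and blue bars are ratios with exact 95% counting intervals, gray bars the range over the processing alternatives, and the dashed line the median of all genes tested; Esr1 lies at -2.36 in the proximal and 0.17 in the ventral luminal comparison (-0.48 there without abundant genes in the denominator), and Pgr has no ventral ratio because proximal luminal-like cells held 0 UMIs.

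Genes around the receptors were followed in lists, counted by the same 2-fold measure and set beside the shares over all genes tested. Of the chaperones and co-regulators, which hold the receptors ready for hormone or act with them on DNA, 2 of 11 were higher and 1 lower in fibroblast-like than in epithelial-like cells, with a median log2 ratio of -0.21. Over all genes 23.6% were higher and 16.5% lower, so these counts lay near the background. Among them the coactivator gene Ncoa1 was 3.01-fold (2.76 to 3.27) higher and Fkbp4, an Hsp90 partner, 2.64-fold (2.35 to 2.97) lower. In the luminal comparison 1 of 11 was higher and 1 lower in the proximal library, and 4 higher and 0 lower in the ventral one, with medians of 0.22 and 0.64. The shares over all genes were 25.1% higher and 16.3% lower in the proximal and 35.3% and 2.87% in the ventral library, with medians of 0.16 and 0.73. Fkbp4 was again the lower one, at 98.4 CPM in proximal luminal-like and 204 CPM in distal luminal-like cells of the proximal library.

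Some enzymes that make or remove steroid ligands were found mainly in fibroblast-like cells. Of 10 listed, 7 had enough UMIs, and 3 of these were higher there and 0 lower, against 23.6% and 16.5% of all genes, with a median log2 ratio of 0.80 against 0.12. Sult1e1, which inactivates estrogens by sulfation, was at 66.0 CPM (59.4 to 73.1) in fibroblast-like cells and 103-fold (76.0 to 142) above epithelial-like cells. Hsd11b1, which regenerates active glucocorticoid, was at 57.1 CPM (50.9 to 63.7), 77.7-fold (58.2 to 105) higher. Srd5a2, which makes dihydrotestosterone, was at 118 CPM (109 to 128), 45.4-fold (38.6 to 53.5) higher. Hsd11b2, which inactivates glucocorticoid and so shields the mineralocorticoid receptor, was low throughout, and its highest level was 5.54 CPM (4.19 to 7.19) in Sbp-rich cells, against 2.26 CPM (1.73 to 2.90) in proximal luminal-like cells. Tgm4-rich cells held 0 Hsd11b2 UMIs, with an upper bound of 0.282 CPM. Outside the stroma, Hsd11b1 was seen in the Nr3c1-high T or NK cell-like cells at 46.5 CPM (22.3 to 85.5) from 10 UMIs. In the luminal comparison 2 of 4 enzymes were higher and 0 lower on the proximal luminal-like side in the proximal library, against 25.1% and 16.3% of all genes. They were Srd5a2 and Srd5a1 by 5.75-fold (3.83 to 8.92) and 5.12-fold (3.31 to 8.20). The ventral library allowed only Hsd17b4, at 2.03-fold (1.47 to 2.74), where 35.3% of all genes were higher. Ventral basal-like cells, in which fibroblast markers were detected, had 70.9 CPM of Sult1e1 and 31.3 CPM of Igf1.

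Glucocorticoid-responsive genes were higher in fibroblast-like cells in 6 of 11 cases and lower in 0, against 23.6% and 16.5% of all genes, with a median log2 ratio of 1.02 against 0.12. They included Cebpd, a transcription factor, at 6.36-fold (6.14 to 6.59), Tsc22d3, which encodes the anti-inflammatory protein GILZ, at 3.19-fold (2.94 to 3.45), Klf9 at 2.76-fold (2.63 to 2.91) and the clock gene Per1 at 2.33-fold (1.98 to 2.73). Fkbp5, an Hsp90 partner that restrains the receptor, was not among them and was highest in Msmb-rich cells, at 194 CPM (186 to 203), while Tgm4-rich cells had 35.2 CPM (32.0 to 38.5). Between luminal types 3 of 11 were higher and 5 lower in the proximal library, against 25.1% and 16.3% of all genes, with a median of -0.31 against 0.16. The metallothionein genes Mt1 and Mt2, which also respond to zinc, were 30.1-fold (29.2 to 31.0) and 28.7-fold (27.0 to 30.5) lower in proximal luminal-like cells, and Errfi1 was 6.77-fold (6.56 to 6.99) higher. Of the 11, 6 were higher and 2 lower in the ventral library, against 35.3% and 2.87% of all genes, with a median of 1.06 against 0.73. The lower ones were again Mt1 and Mt2. Many of these genes answer to other signals too.

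Most of the tested mineralocorticoid-responsive and sodium transport genes, 5 of 6 in each library, were higher in proximal luminal-like cells than in distal luminal-like cells. In each library 1 of the 7 listed had too few UMIs. In the proximal library 1 was lower and the median log2 ratio was 1.88, against 25.1% higher, 16.3% lower and a median of 0.16 over all genes. In the ventral library 0 were lower and the median was 1.89, against 35.3% higher, 2.87% lower and a median of 0.73. Scnn1a, the alpha subunit of the epithelial sodium channel, was 15.9-fold (13.9 to 18.2) higher in the proximal and 32.7-fold (24.3 to 43.9) in the ventral library. Nedd4l, a ubiquitin ligase that removes the channel, was 9.99-fold (9.40 to 10.6) and 2.88-fold (2.27 to 3.61) higher. The sodium pump gene Atp1b1 exceeded its distal luminal level 3.78-fold (3.69 to 3.88), again in the proximal library. The exception was the channel's beta subunit gene, Scnn1b, at 4.80 CPM against 11.4 CPM. Against epithelial-like cells, fibroblast-like cells had 0 of 7 higher and 5 lower, against 23.6% and 16.5% of all genes, with a median of -1.89. Scnn1a was lower there by 9.66-fold (6.63 to 14.7).

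Sgk1, the kinase gene by which both corticosteroid receptors act on sodium transport, is shown with its promoter because it was the only listed gene whose promoter window held the full palindromic glucocorticoid response element. The search covered RefSeq windows from 250 bases before to 50 after each gene start, on both strands, for AGAACA, any 3 bases and its reverse complement TGTTCT, and 36 of the 52 receptors and listed genes had a window. The motif was in 3 of 32851 windows, or 0.00913%. The capitals mark it in the stretch at chr10:21993641-21993775 on the plus strand of GRCm38.p6, where it starts 189 bases before the gene start.
Sgk1: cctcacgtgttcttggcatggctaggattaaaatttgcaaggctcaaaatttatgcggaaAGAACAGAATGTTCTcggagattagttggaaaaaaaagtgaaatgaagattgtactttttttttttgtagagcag
A match describes the letters only. Proximal-library basal-like cells had 700 CPM (685 to 715) of Sgk1 and proximal luminal-like cells 662 CPM (653 to 672). Sgk1 was at 438 CPM (426 to 449) in Tgm4-rich and 333 CPM (318 to 349) in fibroblast-like cells, and at 149 CPM (142 to 157) in Msmb-rich and 118 CPM (112 to 125) in Sbp-rich cells. It was at 93.0 CPM (56.8 to 144) in the T or NK cell-like cells with the highest Nr3c1, so the class orders of Sgk1 and Nr3c1 differed. The palindromic estrogen response element, GGTCA, any 3 bases and TGACC, was in 0.0700% of windows and in none of the listed genes' windows.

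Estrogen-responsive genes and estrogen-related receptors differed in direction from gene to gene. In fibroblast-like over epithelial-like cells 1 of 7 was higher and 4 were lower, against 23.6% and 16.5% of all genes, with a median log2 ratio of -1.12 against 0.12. The higher one was Igf1, a stromal growth factor, at 234 CPM (221 to 247) and 833-fold (542 to 1350) above epithelial-like cells. The orphan receptor gene Esrrg was 27.8-fold (16.5 to 50.8) lower. Greb1, a coactivator of estrogen receptor alpha and one of its classic targets, was at 16.9 CPM (14.7 to 19.3) in Tgm4-rich cells, where Esr1 was highest, but at 0.728 CPM (0.314 to 1.43) in Msmb-rich, 0.198 CPM (0.0240 to 0.715) in Sbp-rich and 0.909 CPM (0.295 to 2.12) in fibroblast-like cells. The Msmb-rich and fibroblast-like cells had Esr1 with little Greb1. In the luminal comparison 1 of 6 was higher and 3 lower in the proximal library, against 25.1% and 16.3% of all genes and with a median of -1.16 against 0.16. Gper1, a membrane estrogen receptor gene, was lower by 69.1-fold (12.1 to 2759) from 1 UMI against 86, and Greb1 by 18.6-fold (9.91 to 39.2). In the ventral library 2 of 4 were higher and 0 lower, against 35.3% and 2.87%, with a median of 0.97 against 0.73. Esrrg differed in direction between the libraries, 2.77-fold (2.60 to 2.96) lower in proximal luminal-like cells of the proximal and 2.44-fold (2.13 to 2.77) higher in those of the ventral library, a difference that was not tested.

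**Figure D4:**
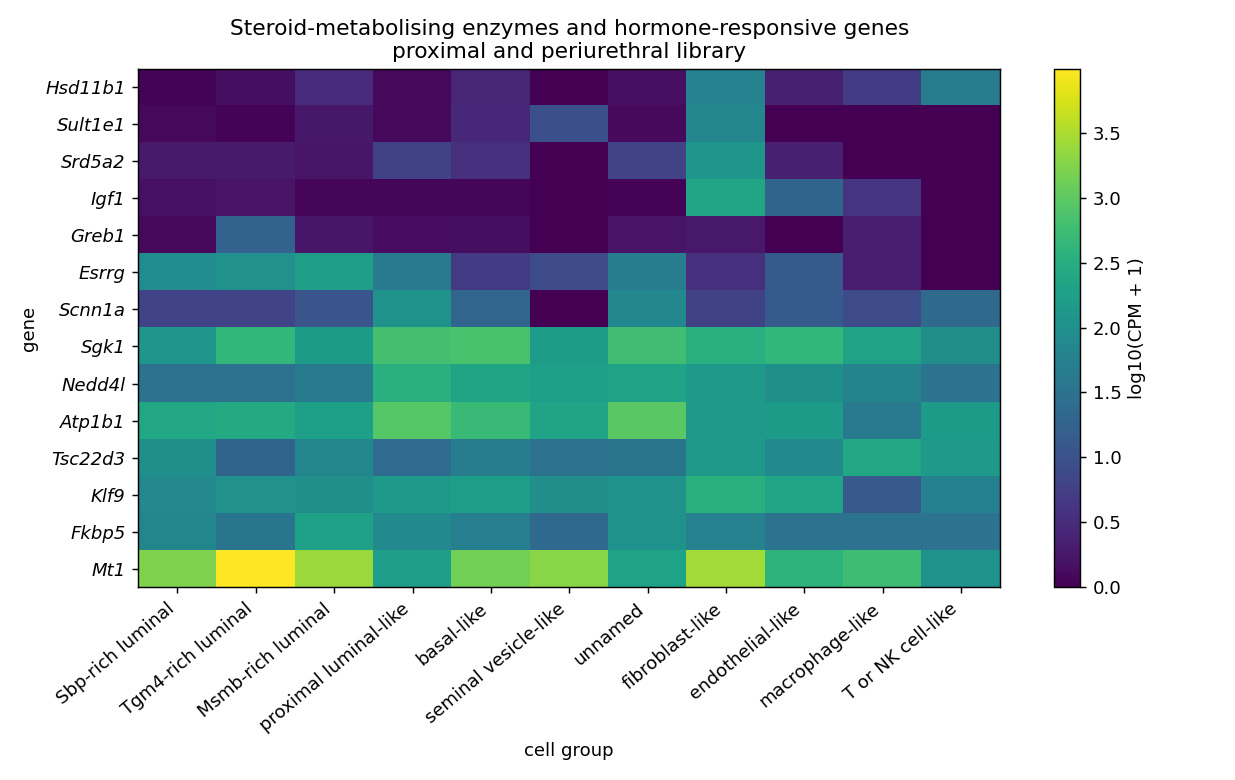
Levels of 14 steroid-converting, hormone-responsive and sodium transport genes in the 11 cell groups of the proximal and periurethral library, as log10(CPM + 1) on the colour scale. Hsd11b1, Sult1e1, Srd5a2 and Igf1 are brightest in fibroblast-like cells among the classes, Greb1 in Tgm4-rich cells, and Scnn1a in proximal luminal-like cells.

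For each receptor, the genes of most similar level pattern were taken over the 12 classes with at least 50 cells, by Pearson correlation of log2 CPM with a pseudocount of 10 CPM, among 11828 genes with at least 200 UMIs. These classes share 2 libraries, depth and the share of secretory RNA, so the correlations are descriptions. Esr1 was nearest to Yipf4 (r = 0.96), Zfp322a (0.93) and Apba3 (0.91). Yipf4 was likewise highest in Tgm4-rich cells, at 152 CPM, and Msmb-rich cells, at 105 CPM, of the proximal library. Esr2 was nearest to Dlg2 (0.90), Abhd3 (0.89) and Snhg14 (0.87), and Pgr was near to Rtn4rl1 and Tmem144 (0.85 each), from few UMIs of Pgr. Nr3c1 was nearest to Cdk11b (0.98), Gnaq (0.97) and Smchd1 (0.97), and Nr3c2 to Sorbs2 (0.92), Bex1 (0.91) and Vamp5 (0.90). Sorbs2, like Nr3c2, was low in basal-like cells, at 18.4 CPM, and macrophage-like cells, at 5.08 CPM.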

How the data were processed

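The authors' files give unnormalised counts of UMIs for each barcode, made with Cell Ranger 7.0.0 on mm10, per the submitters' processing notes; whether intronic reads were counted is not given in the sources used here. The members and lists were chosen with earlier results of these data known.

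Barcodes with under 500 genes or over 10% mitochondrial UMIs were removed, 226 ventral and 635 proximal. Scrublet called 7 and 4 doublets, too few to have worked, so most doublets must be taken as present. Cells were clustered per library (scanpy 1.11.5, 2000 variable genes without the receptors and lists, 30 components, Leiden resolution 1). Clusters took the class whose markers stood highest against all clusters of both libraries, a scoring set after clusters had been looked at.

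UMIs were summed per class. Levels have exact Poisson, ratios exact conditional and shares Clopper-Pearson 95% intervals (scipy 1.17.1). Genes with at least 50 UMIs in both groups together were counted at 2-fold. All 5 receptors were named in classes of at least 20 cells, with up to 4 genes per list and comparison by size of ratio, and further listed genes picked after their values were seen. Sts was not analysed here, and some genes that the rule would name are not reported here. On simulated Poisson counts, 97.5% of 198 genes changed 4-fold passed 2-fold in the fibroblast-like comparison, as did 2.51% of unchanged genes. The intervals held the true ratio for 95.7% of 15543 genes. They assume Poisson counts, so the simulation does not cover differences between cells. Alternatives covered filters, doublets, clustering, naming, denominator, averaging and free RNA.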

Additional observations from a re-analysis of the deposited data

Results flagged for a closer look

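Esr1 had opposite signs in the 2 libraries in proximal luminal-like over distal luminal-like cells, with a log2 ratio of -2.36 in the proximal and 0.17 in the ventral library. The difference was not tested, the libraries differ in both region and kit, and the ventral interval held 0 on this scale. Without abundant genes in the denominator the signs were no longer opposite, with -2.75 in the proximal and -0.48 in the ventral library, and with cells named 1 by 1 the ventral Esr1 value was -0.067. Distal luminal-like cells of the ventral library included no Tgm4-rich cells.

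The 639 proximal and 233 ventral barcodes removed by the filters or called as doublets, which entered no comparison, also held receptor UMIs above the limit that a count of 0 allows. In the proximal library their levels were 28.0 CPM for Esr1, 5.80 CPM for Esr2, 1.01 CPM for Pgr, 23.2 CPM for Nr3c1 and 53.2 CPM for Nr3c2. In the ventral library they were 15.7 CPM for Esr1, 9.17 CPM for Esr2, 10.5 CPM for Nr3c1 and 68.1 CPM for Nr3c2.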

How the results depend on the processing

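Of the recomputed ratios of the 3 comparisons, 159 stayed within the counting interval of the reported value and 21 left it, and 2 others changed direction although the reported interval excluded 0. Of the 159, 6 changed sign within an interval that held 0, all in the ventral luminal comparison. Esr1 there went from 0.17 to -0.48 without abundant genes and to -0.067 with cells named 1 by 1, and Esr2 from -0.12 to between 0.055 and 0.43 in 4 settings. Values are log2 ratios, and the cause was not tested beyond what each setting itself changes. For proximal luminal-like over distal luminal-like cells of the proximal library, Esr1 was -2.17 with a mitochondrial limit of 5%, -2.18 with clustering seed 1, -1.89 with cells named 1 by 1, -2.75 both without abundant genes in the denominator and with the mean of the cells' own CPM, -2.55 after subtraction of 5% free RNA and -1.90 with the unnamed cluster added to its best class. Esr2 was -2.92 at the 5% limit. Nr3c1 changed direction, to -0.023 with cells named 1 by 1 and to -0.10 without abundant genes, and Nr3c2 was 0.23 without abundant genes and 0.37 with the mean of cells. In the ventral library Esr2 was -1.68 with at least 1000 genes, -1.62 with cells named 1 by 1 and -2.03 without cells rich in Sbp and Spink1, where Nr3c1 was 2.51 and Nr3c2 1.80. Nr3c2 there was 1.89 with at least 1000 genes, 0.73 at the 5% limit, 1.99 with cells named 1 by 1 and 0.59 without abundant genes. For fibroblast-like over epithelial-like cells, Nr3c2 was -0.31 at the 5% limit and Nr3c1 0.99 with the mean of cells. Among other ratios, Nr3c1 in Msmb-rich over Sbp-rich cells became -0.43 and in proximal luminal-like over Sbp-rich cells -0.0069 with cells named 1 by 1. Nr3c2 without abundant genes became -0.28 in Tgm4-rich over Sbp-rich and -0.10 in proximal luminal-like over Sbp-rich cells. Over all settings, 785 of these other ratios stayed, 82 moved and 4 changed direction. Of the recomputed levels 1214 stayed and 126 moved, and of the shares of cells 99 stayed and 111 moved. Without abundant genes in the denominator 60 levels stayed and 45 moved. The alternatives on the low-Malat1 and high-Gm26917 clusters and on the unnamed cluster were chosen after seeing the data. With 1 library a region no replicate could be left out. No paired analysis was possible because each region had 1 library. Depth limits the immune, endothelial, seminal vesicle-like and ventral basal-like classes most, where Pgr and Esr2 often had 0 UMIs.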
